A study of Mus musculus with 8 samples.

Results

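The suppressors of cytokine signalling (SOCS) are a family of 8 genes, Socs1 to Socs7 and Cish, and all 8 were taken by name, out of 30284 genes with a value. Socs3 and Socs7 lie on chromosome 11, Socs1 on 16, Socs2 on 10, Socs4 on 14, Socs5 on 17, Socs6 on 18 and Cish on 9. Their mRNA levels were followed in macrophages of 7-week-old male C57BL6 mice with no transgene or targeted allele named in the labels. The groups were LPS+IFNb (interferon beta in the peritoneum for 4 h, then lipopolysaccharide for 4 h), LPS (lipopolysaccharide for 4 h), IFNb (interferon beta for 4 h) and Saline (saline for 4 h), with 2 RNA sequencing libraries each. LPS is a bacterial membrane component sensed by TLR4, and IFNb is a type I interferon. LPS+IFNb cells were thus collected 8 h after interferon. No group had interferon followed by saline, so the time since interferon and the added LPS cannot be told apart in LPS+IFNb against IFNb. No group is labelled as saline followed by LPS either. In LPS+IFNb against LPS, the interferon and the earlier start of treatment therefore cannot be told apart. LPS+IFNb against Saline also includes that earlier start.

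Several SOCS proteins are induced by cytokines and restrain the signalling of those cytokines, a textbook negative feedback loop. Each family member has an SH2 domain that binds phosphorylated tyrosines on a receptor or kinase. Each also has a SOCS box that recruits elongins B and C, Cul5 and Rnf7 into a ubiquitin ligase. Socs1 and Socs3 also carry a short region that blocks JAK kinases directly. In macrophages Socs1 is known for restraining interferon signalling and Socs3 for restraining signals through the IL-6 receptor chain gp130.

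Levels are in TPM, a transcript abundance corrected for length and scaled to the same total in every library, so levels of different members can be compared. A gene's level is the sum of its transcripts. Changes are differences in log2(TPM + 1), given with their standard error, and adjusted p-values are Benjamini-Hochberg values from limma over 13009 genes (those reaching 1 TPM in 2 or more libraries), called under 0.05. All 8 members were among them. Nothing in the labels ties a library to its own animal, so the p-values reflect only how far these libraries differ, and that spread may be technical. In bulk RNA, fewer cells of a type and less RNA per cell cannot be told apart.

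Promoter sequences are shown for the 3 members with the largest rises, Socs1, Socs3 and Cish, because these responded differently to LPS and IFNb. RefSeq entries (GRCm38.p6, 250 bases before to 50 bases after the RefSeq start) matched 4 of the 8 members: Socs1, Socs3, Socs4 and Cish. They were searched on both strands for TTCNNNGAA (the STAT-binding GAS motif), GAAANNGAA (a core of the interferon-stimulated response element, ISRE), GGNNTTTCC (an NF-kB-type kappa B motif) and TGAGTCA (AP-1). Capitals mark the matches. Socs1 lies at chr16:10785487-10785786 on the minus strand, Socs3 at chr11:117969317-117969616 on the minus strand, and Cish at chr9:107296409-107296708 on the plus strand.
Socs1: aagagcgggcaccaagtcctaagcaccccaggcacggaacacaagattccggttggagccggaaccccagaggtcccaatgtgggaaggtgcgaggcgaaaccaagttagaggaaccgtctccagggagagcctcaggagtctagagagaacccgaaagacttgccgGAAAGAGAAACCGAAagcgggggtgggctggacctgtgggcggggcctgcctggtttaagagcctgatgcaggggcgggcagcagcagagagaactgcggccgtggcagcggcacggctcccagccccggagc
Socs3: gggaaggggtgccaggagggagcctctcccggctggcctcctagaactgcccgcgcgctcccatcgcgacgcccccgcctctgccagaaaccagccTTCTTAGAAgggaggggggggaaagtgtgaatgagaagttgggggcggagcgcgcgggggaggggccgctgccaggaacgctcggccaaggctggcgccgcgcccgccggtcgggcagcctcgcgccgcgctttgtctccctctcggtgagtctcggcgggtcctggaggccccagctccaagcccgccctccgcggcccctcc
Cish: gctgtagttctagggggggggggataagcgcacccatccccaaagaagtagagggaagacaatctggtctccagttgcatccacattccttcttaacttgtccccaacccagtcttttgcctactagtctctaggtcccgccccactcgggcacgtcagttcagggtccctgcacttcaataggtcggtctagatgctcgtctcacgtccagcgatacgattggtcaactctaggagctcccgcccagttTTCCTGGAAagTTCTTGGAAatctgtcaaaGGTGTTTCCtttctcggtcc
The Socs1 window held 2 overlapping ISRE cores, from 83 to 75 and from 77 to 69 bases before the start. The Socs3 window held 1 GAS motif, from 154 to 146 bases before the start. The Cish window held 2 GAS motifs, at bases 1 to 9 and 12 to 20 from the start, and 1 kappa B motif at bases 31 to 39. The Socs4 window (chr14:47276670-47276969, plus strand) held none of these letters. Of all 32851 windows, 8.30% held the GAS motif, 8.56% the ISRE core, 5.82% the kappa B motif and 5.20% the AP-1 motif. At least 2 ISRE cores stood in 0.624% of windows and at least 2 GAS motifs in 0.457%. A match describes letters in a window and is not evidence of binding.

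The most abundant SOCS mRNA differed between the groups. The summed TPM of the 8 members was 1008 and 1351 in LPS+IFNb, 1312 and 1410 in LPS, 223.4 and 219.5 in IFNb, and 107.4 and 103.3 in Saline. Socs3 made up 75.7% and 81.8% of that sum in LPS+IFNb and 82.5% and 84.5% in LPS. In IFNb the largest share was that of Socs1, 55.9% and 58.4%, and in Saline that of Socs6, 70.6% and 58.5%. In all 4 libraries that had received LPS the order from the top was Socs3, Cish, Socs1, Socs7, Socs6 and Socs2. In both IFNb libraries it was Socs1, Socs6, Socs7 and Socs2, with Cish last, and in both Saline libraries Socs6 and Socs4 led. These orders, like the shares and ratios here, are of sums over all transcripts. In coding transcripts alone some places changed. Cish then had 40.8 and 44.5 TPM in LPS+IFNb and 51.4 and 43.2 TPM in LPS. Socs1, with only a coding transcript, had 77.4 and 79.0 TPM in LPS+IFNb and 43.8 and 45.5 TPM in LPS. The ratio of Socs3 to Socs1 mRNA was 9.85 and 14.0 in LPS+IFNb, 24.7 and 26.2 in LPS, 0.105 and 0.0726 in IFNb, and 12.2 and 8.39 in Saline, where both genes were low.

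**Figure D1:**
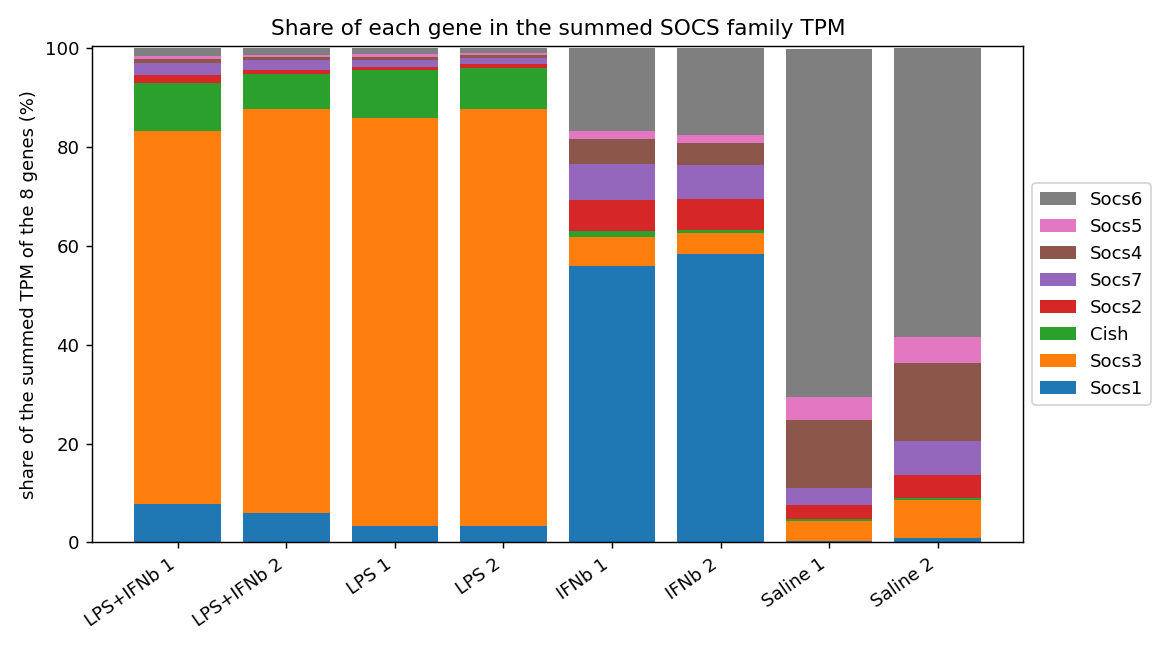
Share of the summed SOCS family TPM (%, vertical axis) held by each of the 8 genes in each of the 8 libraries. Socs3 fills 75.7% to 84.5% of the bar in the LPS+IFNb and LPS libraries, Socs1 55.9% and 58.4% in IFNb, and Socs6 70.6% and 58.5% in Saline.

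Socs1, the inhibitor of JAKs that acts on interferon receptors, was high after both stimuli and highest after IFNb alone. It had 77.4 and 79.0 TPM in LPS+IFNb, 43.8 and 45.5 TPM in LPS, 124.8 and 128.2 TPM in IFNb, and 0.344 and 0.936 TPM in Saline. No library of a group overlapped with another group's, and the order was IFNb, LPS+IFNb, LPS, Saline. The rise over Saline was 5.62 ± 0.17 on the log2 scale in LPS+IFNb (adjusted p = 1.38e-06), 4.82 ± 0.17 in LPS (adjusted p = 4.12e-06) and 6.30 ± 0.17 in IFNb (adjusted p = 1.17e-06). In mean TPM these are 122-fold, 69.7-fold and 198-fold, over a Saline level below 1 TPM. LPS stood below IFNb by a log2 difference of -1.48 ± 0.17 (adjusted p = 0.000667).

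After both agents Socs1 was higher than after LPS alone and lower than after IFNb alone. The difference of LPS+IFNb from LPS was 0.80 ± 0.17 (adjusted p = 0.0126), and that of LPS+IFNb from IFNb was -0.69 ± 0.17 (adjusted p = 0.0199). The call against LPS was lost with a pseudocount of 0.1 (adjusted p = 0.12) and when any of the 4 libraries compared was left out (adjusted p 0.0536 to 0.0638), although the difference itself stayed between 0.77 and 0.82 without any of them. The difference from IFNb was -0.35 (adjusted p = 0.122) after median-ratio scaling, which brings the median gene of each library to the same level, and -0.48 (adjusted p = 0.0595) after upper-quartile scaling. Its call was also lost with a pseudocount of 0.1 (-0.69, adjusted p = 0.161) and when any of the 4 libraries compared was left out (-0.71 to -0.67, adjusted p 0.0724 to 0.0935).

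Socs3, which binds gp130 and blocks the JAKs attached to it, had the largest LPS rise of the members on the log2(TPM + 1) scale, while in mean TPM Cish, with a Saline level below 1 TPM, rose more (222-fold in LPS, against 189-fold for Socs3). These folds are of sums over all transcripts. In coding transcripts alone the fold of Socs3 exceeded that of Cish. Coding Cish had 0.411 and 0.413 TPM in Saline and 51.4 and 43.2 TPM in LPS. Coding Socs3 had 4.05 and 6.24 TPM in Saline and 753.3 and 907.0 TPM in LPS. Summed over transcripts, Socs3 had 762.9 and 1105 TPM in LPS+IFNb, 1082 and 1191 TPM in LPS, 13.1 and 9.31 TPM in IFNb, and 4.20 and 7.85 TPM in Saline. The LPS+IFNb and LPS libraries overlapped, and all 4 stood far above the IFNb and Saline libraries. The rise over Saline was 7.08 ± 0.30 in LPS+IFNb (adjusted p = 6.27e-06) and 7.39 ± 0.30 in LPS (adjusted p = 7.95e-06), 155-fold and 189-fold in mean TPM. Only 12 of the 13009 genes tested rose more than Socs3 in LPS against Saline.

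IFNb alone did not move Socs3 past the threshold: the difference from Saline was 0.83 ± 0.30 (adjusted p = 0.0545, 95% interval 0.12 to 1.54). It passed after median-ratio scaling, at 1.16 (adjusted p = 0.0142), with upper-quartile scaling, with a minimum of 5 TPM, and without Saline replicate 2, at 1.22 (adjusted p = 0.0191). In LPS+IFNb, Socs3 stood at a log2 difference of -0.31 ± 0.30 from LPS alone (adjusted p = 0.472), with a 95% interval of -1.02 to 0.41. LPS+IFNb exceeded IFNb by 6.25 ± 0.30 (adjusted p = 4.37e-05), and LPS exceeded IFNb by 6.56 ± 0.30 (adjusted p = 1.61e-05).

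Part of the Socs3 sum was assigned to a short noncoding transcript. Socs3-203, a processed transcript with 246 bases of exon, held 198.6 and 495.6 TPM in LPS+IFNb, 328.1 and 281.6 TPM in LPS, 5.01 and 3.70 TPM in IFNb, and 0.143 and 1.61 TPM in Saline. The coding transcript, Socs3-201, held 560.7 and 605.1 TPM in LPS+IFNb, 753.3 and 907.0 TPM in LPS, 8.10 and 5.61 TPM in IFNb, and 4.05 and 6.24 TPM in Saline. The 2 LPS+IFNb libraries were close in the coding transcript and far apart in the short one. With coding transcripts alone, LPS+IFNb and LPS libraries did not overlap, and the difference was -0.50 (adjusted p = 0.0996).

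Cish, which binds receptors that activate STAT5, followed LPS much as Socs3 did. It had 96.9 and 96.8 TPM in LPS+IFNb, 127.6 and 118.2 TPM in LPS, 2.80 and 1.42 TPM in IFNb, and 0.516 and 0.592 TPM in Saline. The order was LPS, LPS+IFNb, IFNb, Saline, with no overlap between groups in these sums, although LPS and LPS+IFNb overlapped in coding transcripts. The rise over Saline was 5.98 ± 0.20 in LPS+IFNb (adjusted p = 2.47e-06), 6.32 ± 0.20 in LPS (adjusted p = 3.22e-06) and 0.97 ± 0.20 in IFNb (adjusted p = 0.00837). The IFNb call was lost in a fit to only the groups compared (adjusted p = 0.0553). In mean TPM, LPS gave 222-fold and IFNb 3.81-fold of a Saline level below 1 TPM.

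LPS+IFNb against LPS did not pass for Cish, at -0.34 ± 0.20 (adjusted p = 0.246, 95% interval -0.83 to 0.15), but passed in a fit to only those groups (SE 0.080, adjusted p = 0.0412). It stood above IFNb by 5.01 ± 0.20 (adjusted p = 2.58e-05), and LPS stood above IFNb by 5.35 ± 0.20 (adjusted p = 7.92e-06). Protein-coding transcripts carried 42.1% and 46.0% of Cish TPM in LPS+IFNb, 40.3% and 36.5% in LPS, 86.0% and 56.5% in IFNb, and 79.7% and 69.9% in Saline. The noncoding Cish-205, with 371 bases of exon, held 45.5 and 40.1 TPM in LPS+IFNb and 58.1 and 58.5 TPM in LPS, and at most 0.157 TPM in IFNb and Saline. From coding transcripts alone the LPS rise was 5.09 (adjusted p = 1.56e-05). Coding Cish had 40.8 and 44.5 TPM in LPS+IFNb and 51.4 and 43.2 TPM in LPS, so these 2 groups overlapped. Cish shares 261 exon bases with Gm17040, on the other strand, which had at most 0.421 TPM in any library, and 479 with Gm17041, for which no value was used here. Whether strand was used in counting is not given in the sources used here.

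Socs2, known for restraining growth hormone receptor signalling, rose moderately with every treatment. It had 15.6 and 11.7 TPM in LPS+IFNb, 9.76 and 10.7 TPM in LPS, 13.9 and 13.8 TPM in IFNb, and 3.09 and 4.66 TPM in Saline. Every treated library was above both Saline libraries, and the IFNb values lay between those of LPS+IFNb. The rise over Saline was 1.59 ± 0.20 in LPS+IFNb (adjusted p = 0.000482), 1.22 ± 0.20 in LPS (adjusted p = 0.00272) and 1.63 ± 0.20 in IFNb (adjusted p = 0.000989). No difference among the 3 treated groups passed: LPS+IFNb against LPS was 0.37 ± 0.20 (adjusted p = 0.195), LPS+IFNb against IFNb -0.037 ± 0.20 (adjusted p = 0.896) and LPS against IFNb -0.41 ± 0.20 (adjusted p = 0.156). The first of these passed after median-ratio scaling, at 0.63 (adjusted p = 0.0458), and the last in a fit to only the groups compared (adjusted p = 0.0416).

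Socs7, an adaptor that binds Nck1 and insulin pathway proteins, rose in all 3 treatments and had its highest values after both agents. It had 25.6 and 26.5 TPM in LPS+IFNb, 16.3 and 16.8 TPM in LPS, 16.2 and 14.9 TPM in IFNb, and 3.64 and 7.19 TPM in Saline. Neither LPS+IFNb library overlapped with LPS or IFNb, and the LPS and IFNb values lay side by side. The rise over Saline was 2.13 ± 0.25 in LPS+IFNb (adjusted p = 0.000359), 1.51 ± 0.25 in LPS (adjusted p = 0.00286) and 1.42 ± 0.25 in IFNb (adjusted p = 0.00399). LPS+IFNb exceeded LPS by 0.63 ± 0.25 (adjusted p = 0.0948) and IFNb by 0.71 ± 0.25 (adjusted p = 0.0618), both short of the threshold. After median-ratio scaling both passed, at 0.89 (adjusted p = 0.0213) and 1.04 (adjusted p = 0.0127), as they did after upper-quartile scaling (adjusted p = 0.0465 and 0.0263) and in a fit to only the groups compared (adjusted p = 0.0169 and 0.0129). With either Saline library left out both passed as well, at adjusted p of 0.00628 and 0.00643 against LPS and 0.00456 and 0.0047 against IFNb (Saline replicate 1 and replicate 2 left out). LPS and IFNb differed by 0.081 ± 0.25 (adjusted p = 0.827), with a 95% interval of -0.51 to 0.68.

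Socs6, an adaptor that binds receptors such as Kit, was the leading member in Saline and fell in every treated group. It had 16.6 and 17.6 TPM in LPS+IFNb, 15.5 and 13.4 TPM in LPS, 37.3 and 38.7 TPM in IFNb, and 75.8 and 60.4 TPM in Saline. The groups did not overlap, and IFNb lay between Saline and the LPS-treated groups. Relative to Saline, Socs6 fell by 1.92 ± 0.13 in LPS+IFNb (adjusted p = 4.92e-05), 2.15 ± 0.13 in LPS (adjusted p = 5.87e-05) and 0.82 ± 0.13 in IFNb (adjusted p = 0.00314). Its mean in LPS was 21.2% of the Saline mean. Only 196 of the 13009 genes tested fell more in LPS against Saline. The IFNb call was lost after median-ratio scaling, at -0.43 (adjusted p = 0.0856).

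Among the treated groups Socs6 separated LPS from IFNb. LPS+IFNb against IFNb was -1.11 ± 0.13 (adjusted p = 0.00178), and LPS against IFNb was -1.34 ± 0.13 (adjusted p = 0.000385). LPS+IFNb against LPS was 0.23 ± 0.13 (adjusted p = 0.231).

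Socs4 and Socs5, which are closely related and known for acting on the EGF receptor, moved least. Socs4 had 7.28 and 7.88 TPM in LPS+IFNb, 8.34 and 7.77 TPM in LPS, 11.4 and 9.91 TPM in IFNb, and 14.9 and 16.4 TPM in Saline. All treated libraries were below both Saline libraries, and LPS+IFNb overlapped with LPS. Relative to Saline, Socs4 fell by 0.95 ± 0.12 in LPS+IFNb (adjusted p = 0.000573), 0.87 ± 0.12 in LPS (adjusted p = 0.00157) and 0.51 ± 0.12 in IFNb (adjusted p = 0.0136). After median-ratio scaling the values were -0.28 in LPS+IFNb (adjusted p = 0.089), -0.44 in LPS (adjusted p = 0.0245) and -0.15 in IFNb (adjusted p = 0.394), so that the LPS call alone remained. The IFNb call was also lost without Saline replicate 2 (-0.45, adjusted p = 0.0554) and without IFNb replicate 2 (-0.42, adjusted p = 0.0828). LPS+IFNb against IFNb was -0.44 ± 0.12 (adjusted p = 0.0314), a call lost in 10 of 16 alternatives, among them each LPS+IFNb, LPS or IFNb library left out (adjusted p 0.0515 to 0.159). LPS+IFNb against LPS was -0.078 ± 0.12 (adjusted p = 0.665), and LPS against IFNb was -0.36 ± 0.12 (adjusted p = 0.059), which passed with coding transcripts only (adjusted p = 0.0425).

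Socs5 had 5.64 and 6.70 TPM in LPS+IFNb, 8.37 and 6.68 TPM in LPS, 3.89 and 3.32 TPM in IFNb, and 4.93 and 5.34 TPM in Saline. Both groups given LPS were above both others, with IFNb lowest. LPS exceeded IFNb by 0.88 ± 0.16 (adjusted p = 0.00559), and LPS+IFNb exceeded IFNb by 0.64 ± 0.16 (adjusted p = 0.0223), a call lost when any of the 4 libraries compared was left out (0.53 to 0.74, adjusted p 0.0519 to 0.117) and with no filter on low values (adjusted p = 0.0507). LPS exceeded Saline by 0.47 ± 0.16 (adjusted p = 0.0462), a call lost in 11 of 16 alternatives, among them each of the 8 libraries left out (0.33 to 0.61, adjusted p 0.0511 to 0.225) and the replicate block (adjusted p = 0.0695). Against Saline, LPS+IFNb was 0.22 ± 0.16 (adjusted p = 0.261) and IFNb -0.42 ± 0.16 (adjusted p = 0.0693), and the LPS+IFNb value passed after median-ratio scaling, at 0.84 (adjusted p = 0.00413), and after upper-quartile scaling, at 0.50 (adjusted p = 0.0261). LPS+IFNb against LPS was -0.25 ± 0.16 (adjusted p = 0.283).

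**Figure D2:**
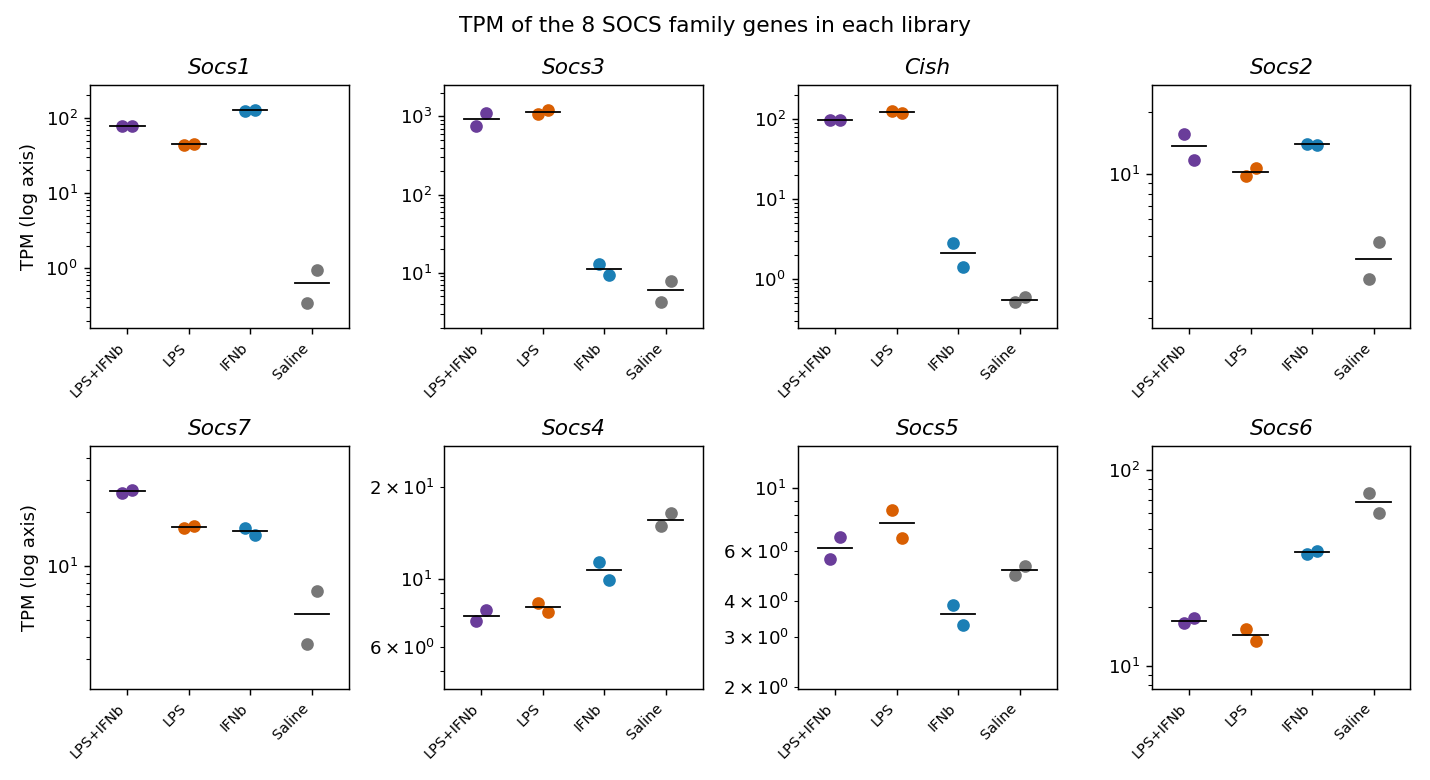
TPM (vertical axis, log scale) of each SOCS family gene in the 8 libraries. Points are libraries, lines are the mean of the 2 libraries, and groups run LPS+IFNb, LPS, IFNb, Saline. Socs3 and Cish are high in the 4 libraries given LPS, at 762.9 to 1191 TPM and 96.8 to 127.6 TPM, and Socs1 is highest in IFNb at 124.8 and 128.2 TPM.

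Counted over the family, LPS against Saline called 6 members higher and 2 lower. Of all genes tested 54.1% were called, 12.8% higher and 41.3% lower, with a median change of -0.38 against 1.36 for the members. IFNb against Saline called 4 members higher (Socs1, Socs2, Socs7 and Cish) and 2 lower (Socs4 and Socs6), against 51.6% of all genes called, 13.0% higher and 38.6% lower. LPS+IFNb against Saline called 5 higher and 2 lower, against 69.4% of all genes, 15.2% higher and 54.1% lower. The comparisons with Saline share the same 2 Saline libraries.

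Between treated groups, LPS+IFNb against LPS called 1 member, Socs1, higher and 0 lower, against 34.8% of all genes, 10.8% higher and 24.1% lower. A further 1 member, Socs7, had an unadjusted p under 0.05 (0.0413). LPS+IFNb against IFNb called 3 higher (Socs3, Cish and Socs5) and 3 lower (Socs1, Socs4 and Socs6), against 39.3% of all genes, 8.76% higher and 30.5% lower. LPS against IFNb called 3 higher (Socs3, Cish and Socs5) and 2 lower (Socs1 and Socs6), against 38.7% of all genes, 16.6% higher and 22.1% lower.

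These counts carry a scaling limit. Median-ratio scaling shifted log2 changes upward by 0.43 for LPS over Saline, 0.36 for IFNb over Saline, 0.66 for LPS+IFNb over Saline, 0.25 for LPS+IFNb over LPS, 0.31 for LPS+IFNb over IFNb and 0.065 for LPS over IFNb. For LPS over Saline it gave 2718 genes called higher and 2254 lower, where the deposited TPM gave 1664 and 5368. For IFNb over Saline it gave 2429 and 1938, where the deposited TPM gave 1697 and 5020. The split became 3567 and 3274 (deposited 1980 and 7042) for LPS+IFNb over Saline, 1989 and 1368 (deposited 1400 and 3129) for LPS+IFNb over LPS, and 1788 and 1423 (deposited 1140 and 3967) for LPS+IFNb over IFNb. The interaction was called for 269 and 630 genes (deposited 457 and 579). The members called were then 6 higher and 2 lower for LPS over Saline, 5 and 0 for IFNb over Saline, and 3 and 0 for LPS+IFNb over LPS. They were 6 and 1 for LPS+IFNb over Saline, 4 and 1 for LPS+IFNb over IFNb, 3 and 2 for LPS over IFNb, and 0 and 2 for the interaction.

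**Figure D3:**
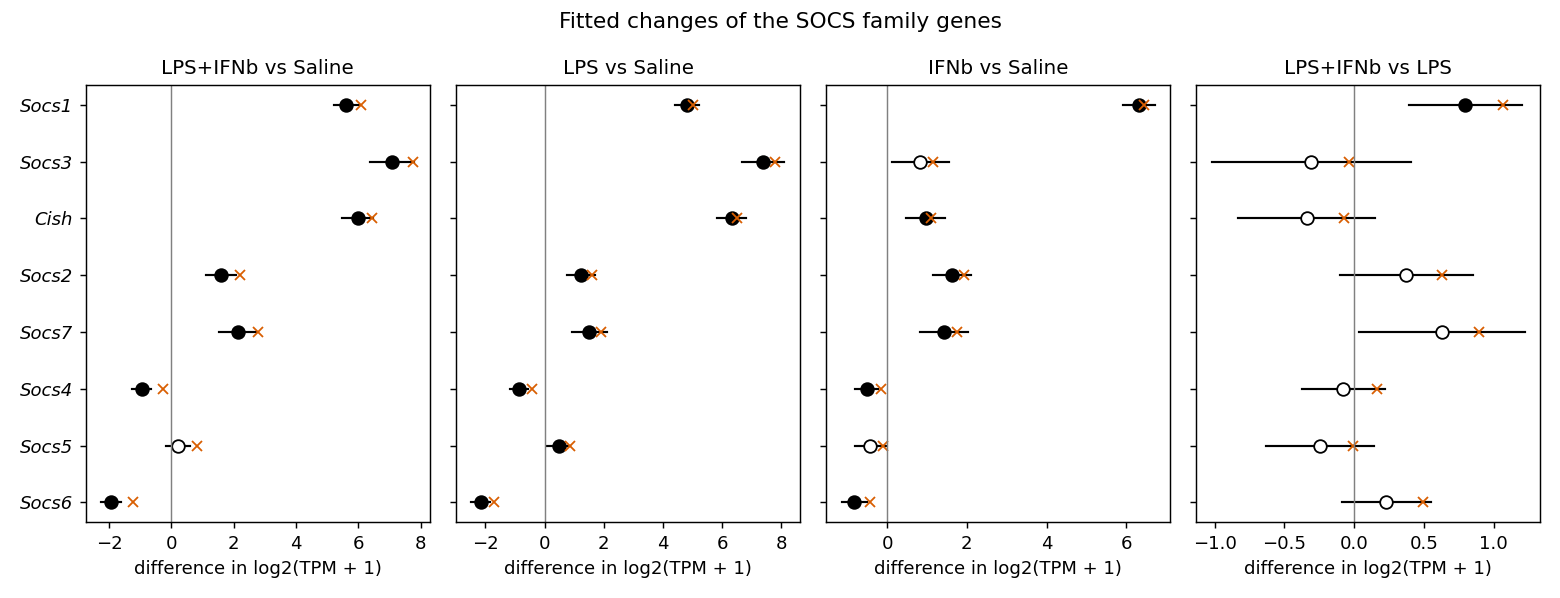
Change in log2(TPM + 1) of the 8 SOCS family genes in LPS+IFNb, LPS and IFNb against Saline and in LPS+IFNb against LPS, with 95% intervals. Filled points passed an adjusted p of 0.05 in limma, open points did not, and orange crosses give the change after median-ratio scaling. The points of Socs3 and Cish lie at 5.98 or more where a group given LPS is set against Saline. The points of Socs6 in those comparisons lie at -1.92 or below, and its crosses at -1.21 in LPS+IFNb and -1.70 in LPS.

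The interaction asks whether adding IFNb changed the level by the same log2 amount with LPS as without it: LPS+IFNb minus LPS, less IFNb minus Saline. It was called for 1 member higher and 3 lower, against 7.96% of all genes, 3.51% higher and 4.45% lower. For Socs1 it was -5.51 ± 0.24 (adjusted p = 5.07e-05), and it passed in all 15 alternatives, at -6.74 to -5.24. The IFNb effect on Socs1 was 6.30 without LPS and 0.80 with it. The other calls were smaller: Cish at -1.31 ± 0.29 (adjusted p = 0.0448), Socs2 at -1.26 ± 0.28 (adjusted p = 0.0461) and Socs6 at 1.05 ± 0.19 (adjusted p = 0.0233). The Cish call was lost in 11 of the 15 alternatives, the Socs2 call in 10 and the Socs6 call in 7. Each was lost with any LPS or LPS+IFNb library left out, at adjusted p 0.115 to 0.139 for Cish, 0.0633 to 0.139 for Socs2 and 0.0519 to 0.0852 for Socs6. Socs2 and Socs6 also lost it without either IFNb library (adjusted p 0.0828 to 0.142), Socs2 without Saline replicate 1 (adjusted p = 0.07), and Cish without either Saline library (adjusted p = 0.0891 and 0.0856). Socs3 (-1.14 ± 0.42, adjusted p = 0.167), Socs4 (0.43 ± 0.17, adjusted p = 0.199), Socs5 (0.17 ± 0.23, adjusted p = 0.731) and Socs7 (-0.80 ± 0.35, adjusted p = 0.235) did not pass, but Socs7 did without Saline replicate 2, at -1.21 (adjusted p = 0.0127). The longer time since interferon and the earlier start of treatment in LPS+IFNb are part of this contrast and cannot be told apart from it.

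Over the 8 libraries, the members followed a few patterns. Pearson's r of log2(TPM + 1) was 0.997 between Socs3 and Cish, 0.977 between Socs1 and Socs2, 0.923 between Socs2 and Socs7 and 0.947 between Socs4 and Socs6. It was -0.963 between Socs3 and Socs6 and 0.491 between Socs1 and Socs3. These describe 4 groups of 2 libraries, which share group means, and carry no test.

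Genes outside the family with the most similar pattern were found in the same way among 7004 genes, over the same 8 libraries. For Socs1 they were Daxx (r = 0.9992), Dtx3l (0.9972) and Parp9 (0.9969). Daxx had 465.5 and 458.1 TPM in LPS+IFNb, 296.6 and 284.2 TPM in LPS, 570.7 and 567.2 TPM in IFNb, and 24.0 and 31.4 TPM in Saline, the same order of groups as Socs1. For Socs3 they were Nfkbiz (0.9986), Tnfaip3 (0.9985) and Nfkbie (0.9977), all known in NF-kB signalling, and for Cish Nfkbiz (0.9984), Ccl5 (0.9982) and Slc2a6 (0.9981). Nfkbiz had 278.0 and 279.4 TPM in LPS+IFNb, 361.3 and 324.0 TPM in LPS, 9.51 and 8.30 TPM in IFNb, and 4.03 and 5.76 TPM in Saline. For Socs2 they were Csf1 (0.986), Vcan (0.9856) and Nr3c1 (0.9839), for Socs6 Zbtb6 (0.9958), Commd8 (0.995) and Arhgap25 (0.9946), and for Socs7 Aff1 (0.9967), Pgs1 (0.9901) and Brd2 (0.9896). Socs4 and Socs5 spanned less than 1 on the log2 scale and were not matched.

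The pathway lists are read against the shares of all genes called: 12.8% higher and 41.3% lower in LPS against Saline, 13.0% and 38.6% in IFNb against Saline, and 10.8% and 24.1% in LPS+IFNb against LPS, with medians of -0.38, -0.37 and -0.22. Of 11 JAK and STAT genes, the kinases and factors that SOCS proteins act on, LPS against Saline called 5 higher and 1 lower with a median of 0.53, or 8 and 0 after median-ratio scaling. The other 5 did not pass. IFNb against Saline called 6 higher and 2 lower with a median of 0.98, or 7 and 1 after scaling, and LPS+IFNb against LPS called 2 and 2, or 5 and 0. Jak2, a kinase bound by Socs1 and Socs3, had 232.4 and 254.7 TPM in LPS+IFNb, 212.9 and 208.8 TPM in LPS, 115.2 and 116.2 TPM in IFNb, and 19.8 and 20.2 TPM in Saline. Its rise was 3.33 ± 0.08 in LPS (adjusted p = 1.1e-06) and 2.48 ± 0.08 in IFNb (adjusted p = 2.31e-06). Stat5a, the factor that drives Cish in many cells, moved in opposite directions, 3.61 ± 0.12 in LPS (adjusted p = 3.11e-06) and -0.99 ± 0.12 in IFNb (adjusted p = 0.000845). Its levels were 119.5 and 133.6 TPM in LPS+IFNb, 164.5 and 163.7 TPM in LPS, 5.56 and 6.06 TPM in IFNb, and 11.4 and 13.7 TPM in Saline. Stat3, which carries signals from gp130 and the IL-10 receptor, exceeded LPS in LPS+IFNb by 1.17 ± 0.17 (adjusted p = 0.00335).

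The ligands of JAK-coupled receptors that were tested were nearly all higher with LPS. A gene was tested if it reached 1 TPM in 2 or more libraries, so a ligand could enter through the groups given LPS alone, as Csf2 did. The counts and median below depend on that filter and are no test of ligands as a class. Of 22 listed, 16 were tested, and 15 were called higher and 1 lower in LPS against Saline, with a median of 3.20. IFNb against Saline called 6 higher and 1 lower with a median of 0.27. LPS+IFNb against LPS called 7 higher and 3 lower. After scaling these were 15 and 0, 7 and 1, and 7 and 1. Il10, whose receptor signals through STAT3, had 159.4 and 167.9 TPM in LPS+IFNb, 28.3 and 23.2 TPM in LPS, 15.7 and 16.9 TPM in IFNb, and 0.323 and 0.152 TPM in Saline. It exceeded LPS in LPS+IFNb by 2.63 ± 0.13 (adjusted p = 9.94e-05). Csf2, the ligand GM-CSF that signals through STAT5, had 18.66 and 15.01 TPM in LPS+IFNb and 26.20 and 26.38 TPM in LPS, was listed at 0 and at 0.0870 TPM in IFNb, and at 0 in both Saline libraries. LPS+IFNb stood below LPS by -0.62 ± 0.15 (adjusted p = 0.0216).

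Receptor chains were mixed. Of 22 tested, LPS against Saline called 8 higher and 6 lower, or 11 and 1 after median-ratio scaling, and IFNb against Saline 5 and 6, or 7 and 3. In LPS+IFNb against LPS 5 and 4 were called, or 8 and 2. Il6ra, the IL-6 binding chain, fell by 2.42 ± 0.20 in LPS (adjusted p = 0.000181). Ifngr1, the ligand-binding chain for interferon gamma, fell by 2.28 ± 0.15 in IFNb (adjusted p = 7.16e-05), and in LPS+IFNb against LPS it fell by 1.44 ± 0.15 (adjusted p = 0.00107). Il15ra rose by 3.96 ± 0.14 in LPS (adjusted p = 4.08e-06) and 4.86 ± 0.14 in IFNb (adjusted p = 1.47e-06).

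SOCS-box partners, the ubiquitin ligase machinery that SOCS proteins recruit, were near the background of all genes. Of the 8, LPS against Saline called 2 higher and 4 lower with a median of -0.25, IFNb against Saline 0 and 4 with a median of -0.37, and LPS+IFNb against LPS 0 and 3. All genes had medians of -0.38, -0.37 and -0.22 and were called lower in 41.3%, 38.6% and 24.1%. After median-ratio scaling the list's counts became 3 and 0, 0 and 1, and 0 and 0. Ube2f, which loads NEDD8 onto Cul5, rose by 1.57 ± 0.08 in LPS (adjusted p = 2.84e-05) and fell by 0.54 ± 0.08 in IFNb (adjusted p = 0.00254). Cul5 itself, the scaffold, had 10.8 and 14.3 TPM in LPS+IFNb, 15.3 and 14.5 TPM in LPS, 17.9 and 16.7 TPM in IFNb, and 25.0 and 21.2 TPM in Saline. Rnf7, its RING partner, fell by 0.69 ± 0.12 in LPS+IFNb against LPS (adjusted p = 0.00578), a call lost after median-ratio scaling. In IFNb against Saline that scaling shifted log2 changes upward by 0.36 and left 1 partner called lower. Arih2 fell more than Ube2f there before scaling, by 1.01 ± 0.12 (adjusted p = 0.000912).

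Of 17 tested genes for other SOCS-box proteins, LPS against Saline called 1 higher and 8 lower and IFNb against Saline 3 and 8, or 3 and 5 and 5 and 4 after scaling. Their medians were -0.39 and -0.50, near the -0.38 and -0.37 of all genes, of which 41.3% and 38.6% were called lower. In LPS+IFNb against LPS 3 were called higher and 2 lower, or 4 and 1. Spsb2, whose protein targets inducible nitric oxide synthase, had 7.07 and 5.34 TPM in LPS+IFNb, 6.09 and 7.84 TPM in LPS, 24.9 and 24.6 TPM in IFNb, and 49.2 and 49.4 TPM in Saline, and fell by 2.67 ± 0.16 in LPS (adjusted p = 4.85e-05). Its relative Spsb1 rose by 0.84 ± 0.17 in LPS (adjusted p = 0.00664) and 1.61 ± 0.17 in IFNb (adjusted p = 0.000562). Asb13 rose by 3.13 ± 0.14 in IFNb (adjusted p = 1.23e-05) and by 1.93 ± 0.14 in LPS+IFNb against LPS (adjusted p = 0.000315).

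Other brakes on the same pathways included changes in both directions. Of 20 genes, LPS against Saline called 9 higher and 6 lower, IFNb against Saline 6 and 8, and LPS+IFNb against LPS 5 and 6, which after scaling were 10 and 1, 9 and 4, and 5 and 2. Usp18, which blocks the type I interferon receptor, had 676.4 and 627.8 TPM in LPS+IFNb, 192.8 and 213.4 TPM in LPS, 813.4 and 808.0 TPM in IFNb, and 10.3 and 8.58 TPM in Saline. Its order of groups was that of Socs1. In LPS+IFNb against LPS it rose by 1.68 ± 0.10 (adjusted p = 0.000179). Irak3, a brake on TLR signalling, fell by 1.38 ± 0.13 in IFNb (adjusted p = 0.000331) and by 1.64 ± 0.13 in LPS+IFNb against LPS (adjusted p = 0.000376).

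Of 17 tested genes for proteins that SOCS members bind, 6 were called higher and 4 lower in LPS against Saline, 3 and 4 in IFNb against Saline, and 1 and 4 in LPS+IFNb against LPS. After scaling these were 9 and 0, 4 and 1, and 3 and 2. Map3k5, the kinase ASK1 bound by Socs1, had 10.9 and 18.9 TPM in LPS+IFNb, 61.5 and 60.8 TPM in LPS, 9.63 and 13.6 TPM in IFNb, and 8.99 and 14.5 TPM in Saline, and fell by 2.01 ± 0.31 in LPS+IFNb against LPS (adjusted p = 0.00413). Of 14 STAT3 and STAT5 target genes, Cish, Socs2 and Socs3 among them, 11 were called higher and 1 lower in LPS against Saline, with a median of 1.58. IFNb against Saline called 4 and 1, or 9 and 0 after scaling, and LPS+IFNb against LPS 2 and 1, or 6 and 0. Pim1, a kinase gene on that list, rose by 0.86 ± 0.15 in IFNb (adjusted p = 0.00458).

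**Figure D4:**
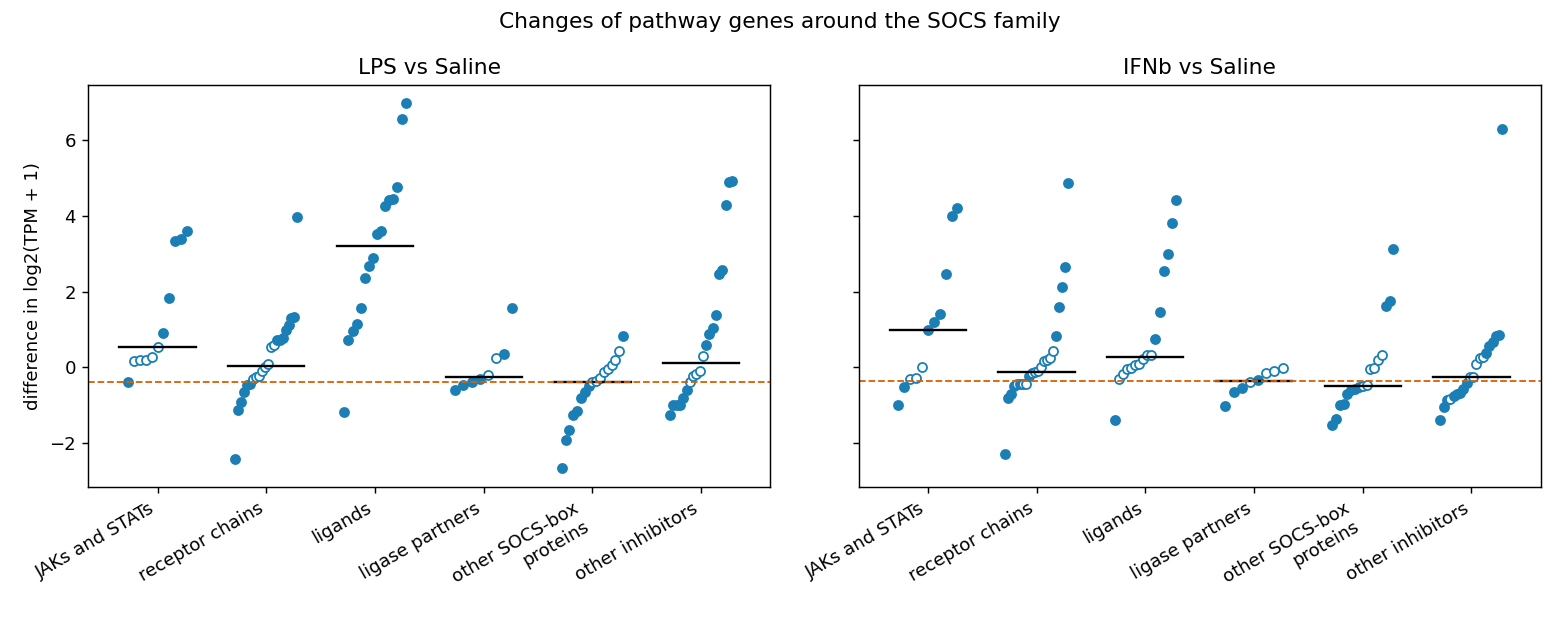
Change in log2(TPM + 1) of pathway genes in LPS against Saline and IFNb against Saline. The lists are JAKs and STATs, receptor chains, ligands, ligase partners, other SOCS-box proteins and other inhibitors. Dots are genes, filled where the adjusted p in limma was under 0.05, black bars are list medians and orange dashed lines the median of all genes tested. The tested ligands, among them Csf2, which passed the filter only through groups given LPS, have a median of 3.20 in LPS against Saline and 0.27 in IFNb against Saline.

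The labelled cell type was checked against marker lists. All 12 peritoneal macrophage markers were tested, and their sum was 14180 to 21870 TPM, most of it Lyz2 (10160 to 17560 TPM). Adgre1 had 189.4 to 306.6 TPM, while Gata6 and Timd4, markers of large resident cells, had 0.86 to 2.11 and 0.43 to 3.38 TPM. Markers of monocytes and small peritoneal macrophages (8 of 8 tested) summed to 587.6 and 639.3 TPM in LPS+IFNb, 156.5 and 167.3 in LPS, 714.6 and 838.6 in IFNb, and 90.3 and 81.4 in Saline. The order of groups in these sums was that of Socs1, but single markers differed. Vcan had 229.5 and 196.1 TPM in LPS+IFNb and 173.3 and 150.1 TPM in IFNb, so its highest values came after both agents. The part of such cells in the Socs1 and Socs2 values was not tested. Of the 8 markers, 4 were called higher and 1 lower in IFNb against Saline, also after median-ratio scaling. Of all genes tested, 13.0% were called higher and 38.6% lower in that comparison. Plac8 rose by 3.87 ± 0.20 (adjusted p = 2.05e-05), and Ccr2, which defines monocytes, had 23.4 and 22.8 TPM in IFNb and 34.1 and 31.5 TPM in Saline.

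Marker lists of other cell types had lower sums than the peritoneal macrophage list. B cell markers (10 of 10 tested) summed to 98.4 to 174.8 TPM and were highest in Saline. T and NK cell markers (8 of 10 tested) summed to 229.4 to 530.1 TPM, mostly Il7r, which is also on the receptor list, with Cd3e at 1.19 to 2.73 TPM. The sums were 57.0 to 98.1 TPM for mast cells and basophils (7 of 10 tested, Mcpt8 listed at 0 in all 8 libraries), 205.3 to 312.2 for neutrophils (5 of 10, the other 5 under 1 TPM in all libraries, Mpo at most 0.26), 7.81 to 21.1 for eosinophils (3 of 7, the other 4 under 1 TPM in all libraries, Epx at most 0.03), 34.4 to 63.9 for dendritic cells (8 of 8) and 26.0 to 78.9 for mesothelial and stromal cells (8 of 10). The mitochondrial share of TPM was 2.52% to 3.93%, and 46998 to 53928 transcripts were above 0, most in Saline 2. Libraries of a group correlated at 0.971 to 0.983 and libraries of different groups at 0.823 to 0.951.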

How the data were processed

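Total RNA of macrophages was sequenced from TruSeq libraries, per the labels' protocols. The authors deposited 1 table of TPM per library, for 88198 transcripts; the submitters' processing notes name kallisto and mm10, and the transcript set is not given in the sources used here. TPM holds no read number, so depth is unknown, no counting error can be given, and each value depends on the other genes of its library. The fixed design named limma for TPM.

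Transcripts were matched to GENCODE M21 (86119 matched, 2079 left out, at most 1.95% of TPM) and summed by gene. A linear model of group means was fitted to log2(TPM + 1) in all 8 libraries with limma 3.58.1 in R 4.3.3 (limma-trend, 4 residual and 2.54 prior degrees of freedom), for genes reaching 1 TPM in 2 or more libraries, with two-sided p-values and Benjamini-Hochberg adjustment over 13009 genes. The pseudocount of 1 understates changes of low genes. Members and lists were chosen with earlier results of these data known. Named were all members and, of each pathway list, up to 3 genes per direction by adjusted p in LPS against Saline, IFNb against Saline and LPS+IFNb against LPS; some are given here, an item the rule names is not reported here, and marker, ligase and Csf2, Cul5 and Ccr2 levels were added as context. The genes most alike came from those averaging 3 or more in log2(TPM + 1). Median-ratio scaling used genes above 0 in every library. Alternatives were that scaling, upper-quartile scaling, a pseudocount of 0.1, no filter, a minimum of 5 TPM, coding transcripts only, the replicate number as a block, and each library left out. A fit to only the groups compared was added except for the interaction. An adjusted p under 0.01 was applied to counts of calls alone and is not among the 16 or, for the interaction, 15 alternatives of single members. The fit was tested on simulated data. Of the design, protein sequences were not analysed here.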

Additional observations from a re-analysis of the deposited data

Results flagged for a closer look

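The interaction of IFNb and LPS passed the threshold for 4 SOCS family genes, against 7.96% of all genes tested. It compares the log2 effect of IFNb in cells with LPS and in cells without it. The largest was Socs1 at -5.51, where IFNb changed the level by 0.80 with LPS and by 6.30 without it. For Socs2 the interaction was -1.26, with IFNb effects of 0.37 with LPS and 1.63 without it. For Cish it was -1.31, with effects of -0.34 and 0.97. For Socs6 it was 1.05, with effects of 0.23 and -0.82. Only the Socs1 call held in all 15 alternatives. The Cish call was lost in 11 of them, the Socs2 call in 10 and the Socs6 call in 7. Libraries with both agents were also taken later after IFNb, and their treatment began earlier than with LPS alone. The part of either in these values cannot be told apart. Groups of 2 libraries were too small for a test of single outlying libraries.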

How the results depend on the processing

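Of the 888 recomputed changes of members, 789 kept direction and side of the threshold, 72 lost the call, 21 gained it and 6 reversed, none of them a call. Several alternatives could alter only the error or the adjusted p, so direction was fixed in advance there. These were no filter, a minimum of 5 TPM, only the groups compared, the replicate block, and leaving out a library of a group not compared. Socs4 in LPS+IFNb over LPS (-0.078) became 0.17 after median-ratio and 0.041 after upper-quartile scaling. Socs2 in LPS+IFNb over IFNb (-0.037) became 0.28 and 0.16 with these scalings and 0.24 with coding transcripts only, and leaving out each library gave -0.23 to 0.16, the only positive value being that without LPS+IFNb replicate 2. At an adjusted p under 0.01, genes called were 4639 for LPS over Saline (7032 at 0.05), 4263 for IFNb over Saline (6717), 2328 for LPS+IFNb over LPS (4529), 2413 for LPS+IFNb over IFNb (5107), 3144 for LPS over IFNb (5029) and 401 for the interaction (1036). Members called were then 0 for LPS+IFNb over LPS (1 at 0.05), 3 for LPS+IFNb over IFNb (6) and 1 for the interaction (4). Median-ratio scaling gave 4367 genes for IFNb over Saline and 3211 for LPS+IFNb over IFNb, and 3 members for LPS+IFNb over LPS and 2 for the interaction. Members for LPS+IFNb over LPS were 2 with upper-quartile scaling, 0 with a pseudocount of 0.1 and 3 from only the groups compared. Interaction members were 2 with no filter and 2 with the replicate block, whose numbers did not pair the samples (r of deviations -0.156 to 0.141). Leaving out each library gave 2723 to 4975 genes and 0 to 2 members for LPS+IFNb over LPS, 2491 to 5542 and 3 to 7 for LPS+IFNb over IFNb, and 469 to 949 and 1 to 4 for the interaction. The lowest values came without a library of a group compared. The cause was not tested. With depth unknown, values near 0, such as Socs1 and Cish in Saline, are the least precise, and 2 libraries a group limit all intervals.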
